A study of Mus musculus with 24 samples.

Results

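Bone marrow-derived macrophages (BMDM) with a knockout of Hdac9 (KO) were set against BMDM of a line in which a cis-regulatory element is deleted (dCIS), both after lipopolysaccharide (LPS). The labels of dCIS read HDAC9 delta cis regulatory element, so that the element is named with the same gene. All genes that passed the expression filter were compared, 14757 of the 56941 mouse gene IDs in the count table. KO and dCIS contributed 4 libraries each, 8 of the 24 libraries of the series. Both groups received LPS at 100 ng/ml for 6 h, and both come from modified mice, so that neither is an unmodified control. Wild-type (WT) BMDM after LPS, and untreated BMDM of KO, dCIS and WT, also with 4 libraries each, are used beside this comparison. The sources used here give no strain, age or sex of the animals, no extent of either deletion and no number of founder lines. In the 8 libraries compared, Xist had 0 or 1 counts, as in male cells. The Y chromosome gene Ddx3y had 809 to 1008 counts in KO and 848 to 1007 in dCIS. Separate animals or cultures within a group are not stated either, so p-values measure the spread between libraries, which may be technical.

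Hdac9 encodes a class IIa histone deacetylase. Enzymes of this class have little deacetylase activity of their own, bind MEF2 transcription factors, and recruit co-repressor complexes that hold class I deacetylases. LPS is a component of the outer membrane of Gram-negative bacteria that is sensed through TLR4, which turns on cytokine genes through NF-kB and interferon-response genes through IRF3. The comparison addresses how macrophages with the Hdac9 knockout differ, under the inflammatory stimulus, from macrophages that lack the element.

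The 8 libraries held 14636058 to 16651501 counts each, with 14636058 to 16570668 in KO and 14813435 to 16651501 in dCIS. The dCIS libraries 3 and 4 stood apart: they had a count at 17628 and 15997 genes, against 20537 to 20874 genes in the KO libraries and 20599 and 20660 in dCIS libraries 1 and 2. Among genes with a mean of 0.5 to 1 CPM (counts scaled to library size), 5.895% and 18.175% were at 0 in dCIS libraries 3 and 4, against 0.281% to 0.632% in KO. No gene of at least 5 CPM was at 0 in any of the 8. The median SD of log2 CPM over the 9181 genes of at least 5 CPM was 0.15 in KO, 0.217 in dCIS and 0.139 in WT after LPS. Calls that were lost without dCIS libraries 3 and 4 are therefore named with their adjusted p in that setting. Of 10 measured macrophage markers 0 passed the test (3 at an unadjusted p under 0.05, 0 with DESeq2). Their summed level was 23800 to 27700 CPM in KO and 19800 to 25700 CPM in dCIS. Among markers of other cells, Ly6g (neutrophils), Ms4a1 (B cells), Col3a1 and Tie1 (stromal cells) and Cpa3 (mast cells) had 0 counts in all 8 libraries. Other members of the same lists had counts. Csf3r had 4998 to 8325 in KO and 5410 to 7392 in dCIS, Pf4 6795 to 9563 in KO and 5668 to 8163 in dCIS, and Kdr 484 to 637 in KO and 432 to 571 in dCIS. Pdgfrb had 88 to 129 in KO and 78 to 134 in dCIS, Pecam1 59 to 103 in KO and 75 to 158 in dCIS, and Cd4 80 to 132 in KO and 27 to 68 in dCIS. Of the lists of other cells, 3 of 11 neutrophil, 3 of 9 dendritic cell, 2 of 12 lymphocyte, 1 of 7 mast cell, 4 of 10 fibroblast and endothelial and 1 of 8 erythroid and megakaryocyte markers passed the expression filter, and 0 were called by edgeR. At an unadjusted p under 0.05 there were 1, 0, 1, 0, 0 and 1, and DESeq2 called 1 lymphocyte marker. The summed level was 421 to 752 CPM in KO and 398 to 610 CPM in dCIS for neutrophil markers, and 8.29 to 15.3 CPM in KO and 4.58 to 9.29 CPM in dCIS for lymphocyte markers. It was 59.3 to 79.9 CPM in KO and 47.7 to 70.2 CPM in dCIS for fibroblast and endothelial markers, and 608 to 799 CPM in KO and 464 to 598 CPM in dCIS for erythroid and megakaryocyte markers. For dendritic cell markers it was 3.09 to 6.83 CPM in KO and 4.3 to 7.28 CPM in dCIS, and for mast cell markers 0.334 to 0.988 CPM in KO and 0.327 to 1.46 CPM in dCIS. Over all genes tested 2.18% were called by edgeR, so that 0 calls in lists this short tell little. The part of these markers in the results was not tested.

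**Figure D1:**
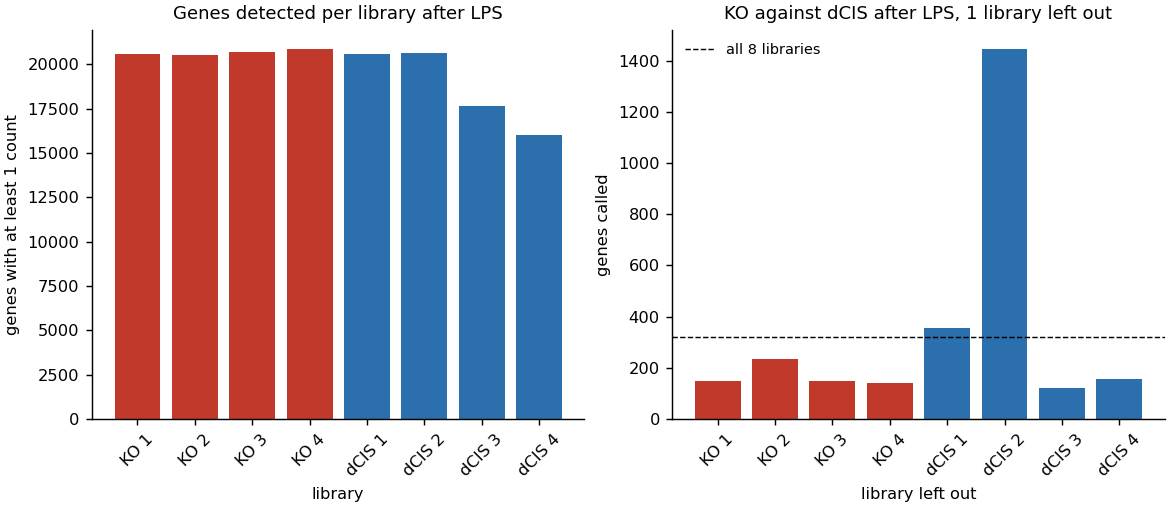
Left, genes with at least 1 count in each of the 8 LPS libraries (red, KO; blue, dCIS). Right, number of genes called between KO and dCIS when the library on the x axis was left out, with the count of 322 from all 8 libraries as a dashed line; the count ran from 122 without dCIS library 3 to 1446 without dCIS library 2.

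Between KO and dCIS after LPS, 322 of 14757 genes (2.18%) had an adjusted p under 0.05 in edgeR's quasi-likelihood test with Benjamini-Hochberg adjustment, and such a gene is said to be called. KO was higher at 199 genes (1.35%) and lower at 123 (0.834%). At 76 of the called genes KO was higher by 2-fold or more, and at 47 it was lower by that much. The 4 KO values and the 4 dCIS values did not overlap at 1160 genes (7.86%). The number called rests on single libraries. It was 150, 149 and 139 without KO libraries 1, 3 and 4, 122 and 155 without dCIS libraries 3 and 4, and 1446 without dCIS library 2. Without dCIS libraries 3 and 4 together it was 62, with 31 higher and 31 lower, and 54 of the 62 were among the 322. With the replicate number as a block it was 751, with 467 higher and 284 lower, and these included all 322. With a block for the number within each genotype it was 1940. That block takes out spread between libraries of 1 line, against which a comparison of lines must be judged. Its p-values here are therefore too small.

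Hdac9 (ENSMUSG00000004698.12), on chromosome 12, had 5, 1, 4 and 4 counts in the 4 KO libraries, against 204, 258, 135 and 134 counts in the dCIS libraries. On the CPM scale these are 0.464, 0.0898, 0.334 and 0.319 in KO, against 16.5, 21.2, 9.89 and 11.0 in dCIS. Every KO library lay far below every dCIS library. The log2 fold change was -5.57 ± 0.331 (SE; edgeR adjusted p = 3.77e-11), and the exact 2-sided permutation test of log2(CPM + 1) gave p = 0.0286, the smallest that 4 against 4 libraries allow. Hdac9 averaged 14.7 ± 5.26 CPM in dCIS and 12.3 ± 2.83 CPM in WT (SD, n = 4 each), a log2 difference of 0.25 that did not pass the test (edgeR adjusted p = 0.647). Of the 3 other class IIa genes, Hdac4, Hdac5 and Hdac7, none was called. Hdac7 averaged 10.9 ± 3.23 CPM in KO and 13.7 ± 2.68 CPM in dCIS, and Hdac5 8.71 ± 1.15 CPM in KO and 10.5 ± 1.78 CPM in dCIS (SD, n = 4 each). Of the 14 deacetylases of other classes and the 20 measured MEF2 factors and class IIa partners, 0 were called by edgeR. An unadjusted p under 0.05 was reached by 1 and 3 of them, and DESeq2 called 1 and 0. The replicate block called 1 of the deacetylases lower and 1 of the partners higher. With 2.18% of all genes called, 0 calls in lists of 14 and 20 genes tell little.

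A set of 26 genes was called in this comparison and in each of the 19 alternative analyses, 14 higher and 12 lower in KO. This set was picked from its values, so that it is given as a description; Dtd2, Acp1, Mier3, Hpcal1, Adprh, Rnaseh1, Lgals8, Scfd1, Sbno1, Ift57 and Wdfy1 are named here only for that reason. Of these 26, 21 were also called in the same direction between untreated KO and untreated dCIS, whose libraries are separate but deviate together with the LPS libraries of the same number (correlations of 0.334 to 0.412 in KO and 0.1 to 0.575 in dCIS). Hdac9 and 8 others lie on chromosome 12. One of the 26 is a numbered gene model, and another is an ID without a symbol. Calls in every alternative favour genes whose KO and dCIS values do not overlap. The largest rises and falls named below were picked for lack of overlap as well. For such genes lack of overlap, found at 7.86% of all genes, is no further support.

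Lower in KO within this set was Odc1, ornithine decarboxylase, the rate-limiting enzyme of polyamine synthesis. It had 41.0, 29.6, 44.6 and 37.6 CPM in KO, against 134, 120, 115 and 107 CPM in dCIS. Every KO library was below every dCIS library, and WT averaged 134 ± 12.1 CPM (SD, n = 4). Its log2 fold change was -1.64 ± 0.159 (SE; edgeR adjusted p = 1.96e-07), and -1.73 without dCIS libraries 3 and 4. Of the other 16 measured genes of arginine, nitric oxide and polyamine metabolism, 1 was called, the cationic amino acid transporter Slc7a2, which rose. The downstream enzymes spermidine synthase (Srm) and spermine synthase (Sms) averaged 11.5 ± 1.87 and 55.6 ± 2.46 CPM in KO, and 13.6 ± 2.67 and 49.6 ± 7.06 CPM in dCIS, and neither was called.

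Nr1h3 encodes LXRα, a nuclear receptor for oxysterols that turns on cholesterol efflux genes. It had 48.0, 68.2, 50.2 and 45.4 CPM in KO, against 172, 159, 137 and 104 CPM in dCIS. The groups did not overlap, and dCIS was the line that stood away from WT: KO averaged 52.9 ± 10.4 CPM, dCIS 143 ± 29.7 CPM and WT 60.3 ± 8.46 CPM (SD, n = 4 each). The log2 fold change of KO over dCIS was -1.44 ± 0.2 (SE; edgeR adjusted p = 9.42e-05), and dCIS over WT was 1.25 (adjusted p = 0.00281), a comparison that shares the dCIS libraries. The LXR targets Abca1 and Abcg1, which export cholesterol to lipoproteins, were not called. Abca1 averaged 129 ± 28.2 CPM in KO and 106 ± 30.8 CPM in dCIS (edgeR adjusted p = 0.614). Abcg1 averaged 172 ± 51.2 CPM in KO and 176 ± 33.4 CPM in dCIS (edgeR adjusted p = 0.951). Nr1h3 was the only member called among the 24 measured genes of cholesterol efflux and lipid uptake.

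Cd200, a membrane glycoprotein whose receptor restrains myeloid cells, had 7.88, 6.02, 5.43 and 3.43 CPM in KO, against 27.7, 24.0, 17.1 and 22.2 CPM in dCIS. The highest KO library was below the lowest dCIS library, and WT averaged 24.7 ± 4.67 CPM (SD, n = 4). The log2 fold change was -2.0 ± 0.3 (SE; edgeR adjusted p = 0.00025). Ero1lb, an oxidase that recharges protein disulfide isomerase in the endoplasmic reticulum, averaged 3.18 ± 0.483 CPM in KO and 10.6 ± 2.52 CPM in dCIS (SD, n = 4 each), with a log2 fold change of -1.73. Mier3, a nuclear protein of a family that binds histone deacetylases, had 81.5, 94.7, 91.9 and 79.7 CPM in KO, against 149, 176, 122 and 139 CPM in dCIS. It was not called without LPS, where its log2 fold change was -0.06 (edgeR adjusted p = 0.74), and after LPS WT averaged 66.0 CPM. The other named genes lower in KO were Dtd2 (a D-aminoacyl-tRNA deacylase), Acp1 (a small phosphotyrosine phosphatase), Hpcal1 (a calcium sensor), Adprh (an ADP-ribosylarginine hydrolase) and Rnaseh1 (which cuts the RNA of RNA-DNA hybrids), with log2 fold changes of -1.06, -0.78, -0.67, -0.63 and -0.57.

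Higher in KO within this set were a pair of metal reductases. Steap3, which reduces iron released from transferrin in endosomes, had 40.3, 48.8, 32.4 and 34.4 CPM in KO, against 9.16, 10.1, 9.37 and 6.54 CPM in dCIS. Its log2 fold change was 2.15 ± 0.161 (SE; edgeR adjusted p = 1.98e-09), and 2.01 without dCIS libraries 3 and 4. Its relative Steap4 had 17.7, 27.4, 13.5 and 21.4 CPM in KO, against 4.87, 10.7, 7.10 and 6.54 CPM in dCIS, and a log2 fold change of 1.45 ± 0.216 (SE; edgeR adjusted p = 0.000246). For both genes the lowest KO library was above the highest dCIS library. They were the only 2 called among the 25 measured genes of oxidative stress and iron handling, whose median log2 fold change was 0.15, against 0.04 over all genes tested.

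Adam19, a membrane metalloprotease, had 12.3, 15.1, 10.0 and 11.7 CPM in KO, against 2.19, 2.22, 1.39 and 1.96 CPM in dCIS. WT averaged 2.01 ± 0.489 CPM (SD, n = 4), close to dCIS. The log2 fold change was 2.66 ± 0.361 (SE; edgeR adjusted p = 6.53e-05). Ccdc39, which sets the spacing of dynein arms in motile cilia, had 18.4, 17.2, 19.0 and 19.5 CPM in KO, against 1.30, 0.904, 1.54 and 0.409 CPM in dCIS. It had the highest log2 fold change of the 26 genes, 4.14 ± 0.367 (SE; edgeR adjusted p = 5.37e-08). Without LPS its difference was 0.91 and did not pass the test (edgeR adjusted p = 0.296). Adi1, which acts in the salvage of methionine, had 23.8, 32.0, 18.7 and 24.6 CPM in KO, against 5.19, 5.59, 7.18 and 6.13 CPM in dCIS, a log2 fold change of 2.04 ± 0.185 (SE; edgeR adjusted p = 7.4e-08).

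Outside this set, Hpn, the serine protease hepsin, was lower in dCIS than in KO and in WT, with 3.20 ± 2.20 CPM in KO, 0.549 ± 0.327 CPM in dCIS and 3.84 ± 0.386 CPM in WT (SD, n = 4 each). Its KO over dCIS log2 fold change of 2.51 (edgeR adjusted p = 0.00404) was no longer called without dCIS libraries 3 and 4 together (adjusted p = 0.0887). The log2 difference of dCIS over WT was -2.78 (edgeR adjusted p = 0.00436), a comparison that shares the dCIS libraries.

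Of the remaining named genes higher in KO, Wdfy1, an endosomal adaptor of Toll-like receptor signalling, averaged 76.9 CPM in KO and 29.2 CPM in dCIS. Lgals8, galectin-8, which marks damaged vesicles, averaged 396 CPM in KO and 270 CPM in dCIS. Scfd1, a Sec1 family protein of traffic between endoplasmic reticulum and Golgi, averaged 115 CPM in KO and 69.3 CPM in dCIS. Sbno1, a homologue of strawberry notch in Drosophila, averaged 124 CPM in KO and 69.7 CPM in dCIS, and Ift57, an intraflagellar transport protein, 75.2 CPM in KO and 41.5 CPM in dCIS. Their log2 fold changes were 1.39, 0.55, 0.73, 0.83 and 0.86. In each of these 5 genes the 4 KO libraries lay above the 4 dCIS libraries, which the way the set was picked makes likely. The last 2 of the set, Nol10 and Med21, are described with the LPS response below.

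**Figure D2:**
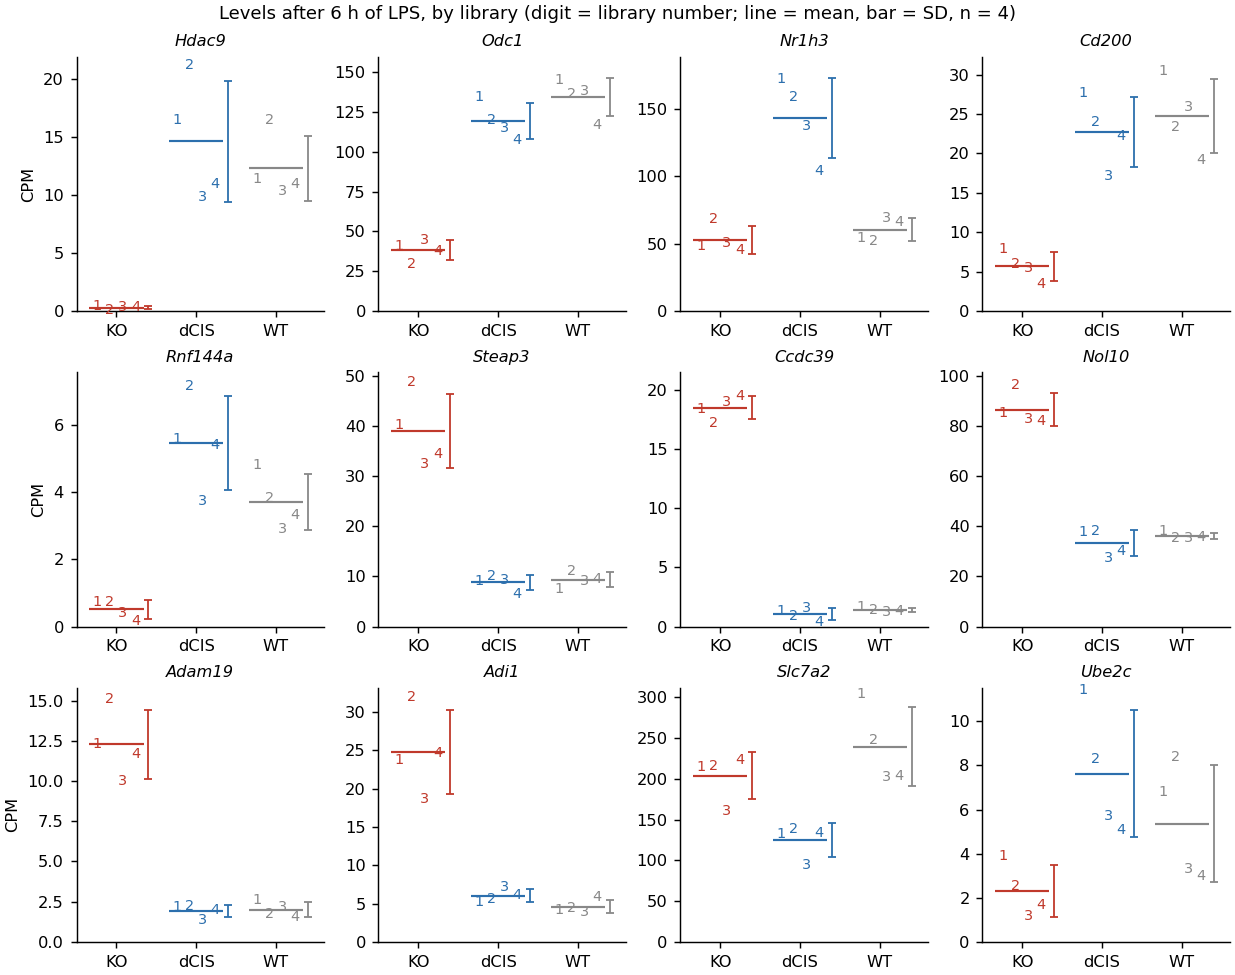
CPM of 12 genes in the LPS libraries of KO, dCIS and WT (linear axes from 0; digits are library numbers, lines the mean and bars the SD of 4). Odc1, Cd200 and Rnf144a are low in KO with dCIS near WT, whereas Nr1h3 and Slc7a2 have KO nearer to WT than dCIS is.

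The largest differences, at a mean of 5 CPM or more in the higher group, included some that are not in the set above, because 1 or more alternatives did not test them. Glrp1 had 2 counts in all 4 KO libraries together, against 290 in dCIS. Corrected for library size the level was 134 times higher in dCIS than in KO, with a 95% counting interval of 36.7 to 1110. Akr1c12, an aldo-keto reductase, had 0.649, 1.71, 1.17 and 1.2 CPM in KO, against 4.54, 6.08, 7.18 and 6.30 CPM in dCIS, and fell by a log2 fold change of -2.34 ± 0.230 (SE; edgeR adjusted p = 2.31e-07). Its paralog Akr1c19 went the other way, with 5.10, 7.10, 4.60 and 6.38 CPM in KO, against 0.649, 1.23, 1.83 and 0 CPM in dCIS (log2 fold change 2.61; edgeR adjusted p = 0.0016). The sources used here do not say how the counting split reads between such close copies. Gpr141b, an orphan G protein-coupled receptor, had 9.92, 8.00, 9.70 and 6.06 CPM in KO, against 0, 0.658, 0.879 and 0.245 CPM in dCIS, a log2 fold change of 4.19 ± 0.491 (SE; edgeR adjusted p = 1.52e-05). All 4 kept their call in every alternative that tested them, 18 each.

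Further genes of this rank were called with all libraries but not under each alternative. Epha4, an ephrin receptor, averaged 8.72 ± 2.12 CPM in KO and 2.00 ± 0.930 CPM in dCIS (SD, n = 4 each; log2 fold change 2.12). Padi4, a peptidylarginine deiminase, averaged 2.02 ± 0.673 CPM in KO and 5.64 ± 1.10 CPM in dCIS (log2 fold change -1.48). Without dCIS libraries 3 and 4 together the edgeR adjusted p was 0.0673 for Epha4 and 0.0566 for Padi4. Etv1, an ETS transcription factor, averaged 6.15 ± 1.46 CPM in KO and 2.19 ± 0.938 CPM in dCIS, and lost its call when only these 8 libraries were fitted (edgeR adjusted p = 0.0642). Pcdhac2, a protocadherin, averaged 6.06 ± 0.548 CPM in KO and 1.85 ± 0.979 CPM in dCIS. Its adjusted p was 0.0527 without KO library 4, 0.0705 without dCIS library 3, and 0.161 without dCIS libraries 3 and 4.

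Of the 322 genes, 193 were also called between untreated KO and untreated dCIS, where 3147 genes (21.3%) were called, and 191 of the 193 had the same direction (127 higher and 64 lower in KO). These 191 are 59.3% of the genes called after LPS and 6.07% of those called without LPS. The untreated libraries are not those of the LPS comparison, but share the same-number deviations given above. Over all 14757 genes the log2 fold changes with and without LPS had a Pearson r of 0.431, a correlation across genes, which are not independent replicates. Among genes shared by both treatments were 3 UDP-glucuronosyltransferases of the Ugt1a cluster, enzymes that conjugate lipophilic compounds. Ugt1a8 had 84 counts over the 4 KO libraries (2.32, 1.71, 1.59 and 1.68 CPM) and 0 in dCIS, which is at least 30.4-fold higher when dCIS is set to a floor of 3 counts in all. Ugt1a9 had 35 counts in KO and 0 in dCIS, at least 12.7-fold higher against the same floor. Ugt1a6b averaged 1.79 ± 0.557 CPM in KO and 0.139 ± 0.101 CPM in dCIS (SD, n = 4 each). Genes of this cluster share their last exons, so reads there can be split between them in ways the counts do not show. Zfp125, a zinc finger gene on chromosome 12, had 1 count in KO and 25 in dCIS, 23.0 times higher in dCIS (95% counting interval 3.77 to 946).

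Other genes called in both treatments were at low levels. B3gnt7, a glycosyltransferase, averaged 2.82 ± 1.36 CPM in KO and 0.529 ± 0.506 CPM in dCIS, and without dCIS libraries 3 and 4 its edgeR adjusted p was 0.091. Nectin3, an adhesion molecule, averaged 1.32 ± 0.364 CPM in KO and 0.235 ± 0.165 CPM in dCIS. It lost its call without KO library 1, KO library 4 or dCIS library 4 (edgeR adjusted p = 0.0776, 0.0763 and 0.0689). Cfap74, a cilium protein, averaged 0.903 ± 0.445 CPM in KO and 0.141 ± 0.140 CPM in dCIS, with overlap between the groups. It lost its call without KO library 1, 3 or 4 and without dCIS library 3 or 4, at adjusted p-values of 0.0711 to 0.114. The edgeR adjusted p was 0.212 for Nectin3 and 0.426 for Cfap74 without dCIS libraries 3 and 4 together.

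**Figure D3:**
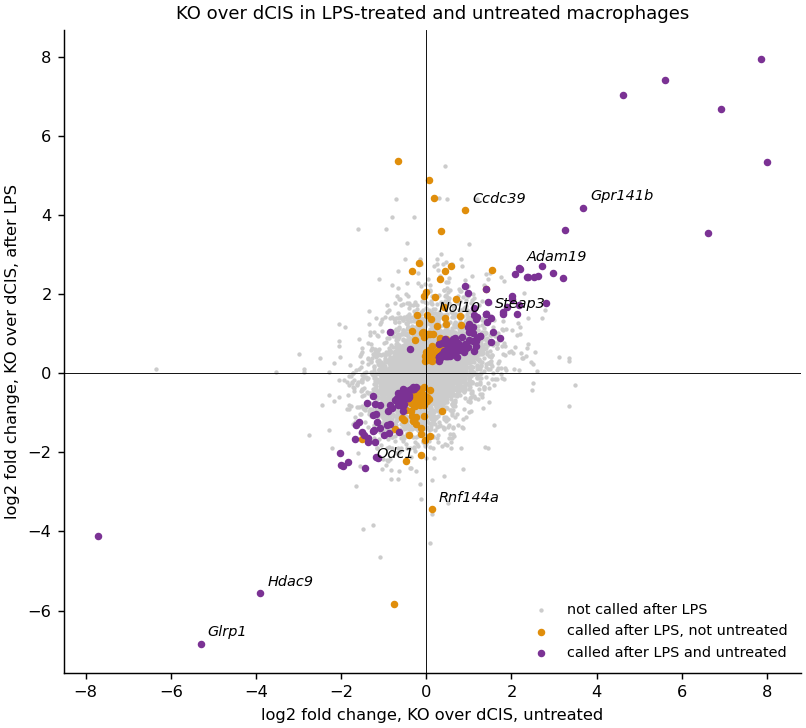
Log2 fold change of KO over dCIS for 14757 genes, untreated on the x axis and after LPS on the y axis. Purple points are called in both treatments, orange points after LPS and not untreated, grey points not after LPS; Hdac9 and Glrp1 lie far down on both axes, and Rnf144a and Nol10 lie near 0 on the x axis.

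The difference of the LPS response, KO minus dCIS, passed the test at 4 genes (0.0271% of those tested). An unadjusted p under 0.05 was reached by 1663 genes, and DESeq2 called 32. A block for the number within each genotype, which uses the shared deviations of treated and untreated libraries, called 158. The count also rested on single libraries: it was 167 without untreated dCIS library 2, 7 without dCIS library 1 after LPS, and 2 without KO library 2, 3 or 4 after LPS, untreated KO library 1, 3 or 4, or untreated dCIS library 1, 3 or 4. Rnf144a, a RING-type ubiquitin ligase on chromosome 12, had 0.742, 0.719, 0.418 and 0.16 CPM in KO after LPS, against 5.59, 7.15, 3.73 and 5.40 CPM in dCIS after LPS. Without LPS it averaged 0.972 ± 0.199 CPM in KO and 0.894 ± 0.246 CPM in dCIS (SD, n = 4 each). In WT it averaged 3.71 ± 0.828 CPM after LPS and 0.744 ± 0.255 CPM without. The difference of responses was -3.56 ± 0.474 on the log2 scale (SE; edgeR adjusted p = 0.000781).

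Nol10, a nucleolar protein of ribosome biogenesis on chromosome 12, had 84.9, 96.3, 82.8 and 81.8 CPM in KO after LPS, against 37.6, 37.9, 27.5 and 30.2 CPM in dCIS after LPS. Without LPS it averaged 19.3 ± 2.49 CPM in KO and 17.8 ± 2.20 CPM in dCIS (SD, n = 4 each), and after LPS WT averaged 36.1 ± 1.2 CPM. The difference of responses was 1.26 ± 0.173 (SE; edgeR adjusted p = 0.000781). For Rnf144a and Nol10 this difference passed the test in all 26 alternatives, at adjusted p-values of at most 0.00853 and 0.0232.

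Med21, a subunit of the Mediator complex, averaged 52.1 ± 4.92 CPM in KO and 26.1 ± 4.69 CPM in dCIS after LPS, and 17.3 ± 1.91 CPM in KO and 16.9 ± 2.38 CPM in dCIS without LPS (SD, n = 4 each). Its difference of responses of 0.97 (edgeR adjusted p = 0.0471) was lost in 14 of 26 alternatives. Among them were leaving out KO library 2, 3 or 4 or dCIS library 3 or 4 after LPS, and leaving out any untreated KO library or untreated dCIS library 1, 3 or 4, with adjusted p-values of 0.0542 to 0.22. Lsm11, a component of the U7 particle that processes histone transcripts, averaged 18.8 ± 2.24 CPM in KO and 12.3 ± 1.90 CPM in dCIS after LPS. Its difference of 1.00 (edgeR adjusted p = 0.0471) was lost in 17 of 26. These included leaving out any KO library with or without LPS, dCIS library 1, 2 or 3 after LPS, and untreated dCIS library 1, 3 or 4, with adjusted p-values of 0.0567 to 0.22. The KO over dCIS difference of Lsm11 after LPS itself (log2 0.61; edgeR adjusted p = 0.0116) was lost without KO library 4 (0.0581) and without dCIS library 3 (0.0582).

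Cell cycle genes formed the list with the lowest median. Of 30 genes of mitosis, 4 were lower and 0 higher in KO than in dCIS, against 0.834% lower and 1.35% higher over all genes. Their summed level overlapped, at 223 to 290 CPM in KO, 243 to 375 CPM in dCIS and 224 to 311 CPM in WT. In this list 28 genes had a log2 fold change below 0, and the median was -1.03, against 0.04 over all genes tested. With the replicate block 13 fell, and with DESeq2 11, settings that called 284 and 292 of all 14757 genes lower. The median was -1.51 without dCIS libraries 3 and 4 (3 called), and -0.46 without dCIS libraries 1 and 2 (3 called), so its size depended on which dCIS libraries were in the fit. No member was called without KO library 3, and none without KO library 4. Only 1 was called without KO library 2, dCIS library 1 or dCIS library 4, and 2 without KO library 1. The difference was not particular to LPS. Between untreated KO and untreated dCIS, 19 of the 30 were lower in KO and 0 higher, with a median of -0.86. Ube2c, Top2a, Birc5 and Ccna2 were among these 19 (edgeR adjusted p = 0.00162 to 0.0297). Of all 14757 genes, 1365 were lower in untreated KO. In bulk RNA, fewer cells that express a gene and less of its RNA per cell cannot be told apart.

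Ube2c, the ubiquitin-conjugating enzyme of the anaphase-promoting complex, had 3.9, 2.52, 1.17 and 1.68 CPM in KO, against 11.4, 8.30, 5.71 and 5.07 CPM in dCIS. The groups did not overlap, which was a condition for naming the largest falls. The log2 fold change was -1.73 ± 0.395 (SE; edgeR adjusted p = 0.0206), and -2.11 without dCIS libraries 3 and 4 (adjusted p = 0.0233). It lost its call without KO library 3 (0.086), KO library 4 (0.0764) or dCIS library 1 (0.0546). Top2a, the topoisomerase that disentangles sister chromatids, had 12.2, 10.2, 7.36 and 7.10 CPM in KO, against 26.4, 28.2, 16.0 and 18.6 CPM in dCIS. Its log2 fold change was -1.28 ± 0.321 (SE; edgeR adjusted p = 0.0334). Its call was lost without KO library 2, 3 or 4 or dCIS library 1 or 4 (edgeR adjusted p = 0.0538 to 0.108), and without dCIS libraries 3 and 4 together (0.0578). In both genes libraries 1 and 2 were the higher ones in KO and in dCIS, and WT libraries 1 and 2 had 6.78 and 8.39 CPM of Ube2c, against 3.29 and 2.99 CPM in WT libraries 3 and 4.

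Birc5, survivin, a subunit of the chromosomal passenger complex, averaged 2.11 ± 0.471 CPM in KO and 6.69 ± 2.27 CPM in dCIS (SD, n = 4 each). Its call was lost without any 1 of the 4 KO libraries and without dCIS library 1 or 4 (edgeR adjusted p = 0.052 to 0.0918). Ccna2, cyclin A2, averaged 0.818 ± 0.145 CPM in KO and 3.57 ± 0.821 CPM in dCIS, and lost its call without any 1 of the KO libraries or dCIS library 4 (edgeR adjusted p = 0.0645 to 0.0888). Cdca3, which promotes mitotic entry and is outside the list, averaged 1.86 ± 0.628 CPM in KO and 5.50 ± 1.34 CPM in dCIS. It lost its call without KO library 2, 3 or 4 or dCIS library 3 (edgeR adjusted p = 0.0515 to 0.0855). All 3 calls were lost without dCIS libraries 3 and 4 together (edgeR adjusted p = 0.0673 for Birc5, 0.11 for Ccna2 and 0.0809 for Cdca3), with log2 fold changes of -1.92, -2.29 and -1.73. WT after LPS averaged 5.36 ± 2.65 CPM of Ube2c, 13.0 ± 6.5 CPM of Top2a and 4.29 ± 2.63 CPM of Birc5 (SD, n = 4 each). It averaged 1.87 ± 1.46 CPM of Ccna2 and 2.96 ± 1.27 CPM of Cdca3. Each of these means lay between KO and dCIS. None of these genes passed the test for KO over WT (edgeR adjusted p = 0.0864 to 0.396) or dCIS over WT (0.245 to 0.575). Mki67, the antigen Ki-67, had 36.0 ± 12.5 CPM in KO and 31.8 ± 16.1 CPM in dCIS and was not called.

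Among 37 genes of DNA replication 3 were lower and 0 higher in KO than in dCIS, with a median of -0.32. Over all genes 0.834% were lower. With the replicate block 8 were lower, against 284 of all 14757 genes. The 3 included Rrm1, the large subunit of ribonucleotide reductase, and Mcm7, a subunit of the replicative helicase. Rrm1 had 21.0, 13.9, 13.5 and 13.8 CPM in KO, against 29.8, 29.1, 23.1 and 23.6 CPM in dCIS (log2 fold change -0.77; edgeR adjusted p = 0.0417). Mcm7 averaged 3.19 ± 0.730 CPM in KO and 6.21 ± 0.798 CPM in dCIS (SD, n = 4 each). WT averaged 17.4 ± 4.67 CPM of Rrm1 and 4.71 ± 1.4 CPM of Mcm7, between KO and dCIS for both genes. KO over WT did not pass the test (edgeR adjusted p = 0.697 and 0.226), nor did dCIS over WT (0.181 and 0.502). Rrm1 lost its call without KO library 2, 3 or 4 or dCIS library 1, 3 or 4, and Mcm7 without any of the 8 libraries except dCIS library 2. Their adjusted p-values were then 0.0544 to 0.139. Without dCIS libraries 3 and 4 together, 0 of the 37 were called, with an edgeR adjusted p of 0.102 for Rrm1 and 0.352 for Mcm7, and the median was -0.30. Between untreated KO and untreated dCIS, 26 of the 37 were lower in KO and 0 higher, with a median of -0.74.

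The promoters of Ube2c and Top2a are shown because mitotic genes that move together often carry CCAAT boxes, bound by NF-Y, and the cell cycle homology region, here searched as TTTGAA, bound by the DREAM and MuvB complexes. The 250 bases before the RefSeq start are printed 5′ to 3′ on the gene's strand, with each CCAAT or TTTGAA on either strand in capitals. They lie at chr2:164769679-164769928 (plus strand, Ube2c) and chr11:99024190-99024439 (minus strand, Top2a) of GRCm38.p6, which is not the mm39 build of the counts.
Ube2c: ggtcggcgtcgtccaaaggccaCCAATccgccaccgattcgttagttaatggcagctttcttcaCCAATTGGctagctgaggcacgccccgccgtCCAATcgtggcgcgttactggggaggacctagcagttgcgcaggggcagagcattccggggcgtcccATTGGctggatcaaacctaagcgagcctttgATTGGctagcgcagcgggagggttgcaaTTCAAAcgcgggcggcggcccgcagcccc
Top2a: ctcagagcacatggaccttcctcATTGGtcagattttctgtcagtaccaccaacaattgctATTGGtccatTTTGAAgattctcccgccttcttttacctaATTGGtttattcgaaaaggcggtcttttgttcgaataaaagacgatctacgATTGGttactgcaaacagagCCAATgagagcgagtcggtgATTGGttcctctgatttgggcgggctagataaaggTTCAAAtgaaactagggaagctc
Ube2c held 6 CCAAT matches, a pair of which overlap, and 1 TTTGAA match 29 bases before the start. Top2a held 6 CCAAT matches and 2 TTTGAA matches, 179 and 23 bases before the start. Of the 30 mitosis genes, 24 had a promoter in the RefSeq table. CCAAT (or ATTGG) was present in the 250 bases of 18 of the 24 (75%), against 34.5% of 27025 promoters. TTTGAA (or TTCAAA) was present in 7 of the 24 (29.2%), against 16.3%. With 50 bases after the start included, it was present in 18 of the 24 (75%), against 18.1%. Birc5 held neither. A match describes these letters only, and no binding was measured here. The shares are those of the mitosis list whatever its levels in KO and dCIS, so they say nothing about the difference between them.

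Genes that respond to LPS were followed as classes set by WT. Of the 2416 genes that rose at least 2-fold with LPS in WT (16.4% of those tested), 88 were called between KO and dCIS (3.64%), 75 higher and 13 lower in KO. Their median log2 fold change was 0.14, against 0.04 over all genes, and 0.06 against 0.00 without dCIS libraries 3 and 4, when 14 were called. Of the 2582 genes that fell at least 2-fold (17.5%), 66 were called, 27 higher and 39 lower in KO, with a median of -0.04.

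By role, 0 of 16 measured cytokines, 0 of 28 chemokines and receptors, 0 of 22 genes of TLR4 signalling and 0 of 28 genes of NF-kB and its feedback were called. The replicate block called 1, 0, 3 and 4 of these, and DESeq2 called 0, 1, 2 and 0. An unadjusted p under 0.05 was reached by 4, 3, 7 and 11. With 2.18% of all genes called, 0 calls in lists of these sizes tell little. Il6 had 498, 607, 699 and 636 CPM in KO, against 485, 354, 320 and 344 CPM in dCIS. Its lowest KO value was just above its highest dCIS value, and the log2 fold change of 0.70 ± 0.221 (SE) did not pass the test (edgeR adjusted p = 0.0909). With the replicate block its adjusted p was 0.0349, and without dCIS libraries 3 and 4 it was 0.679. Il6 averaged 601 ± 175 CPM in WT (SD, n = 4), with log2 differences of 0.02 for KO over WT and -0.68 for dCIS over WT. Neither passed the test (edgeR adjusted p = 0.968 and 0.18). Il1b had 912, 1020, 1130 and 1170 CPM in KO, against 966, 469, 563 and 540 CPM in dCIS, where library 1 overlapped KO. Its log2 fold change of 0.74 ± 0.321 (SE) had an edgeR adjusted p of 0.197, 0.0413 with the replicate block and 0.815 without dCIS libraries 3 and 4. Il1b averaged 921 ± 335 CPM in WT, with log2 differences of 0.20 for KO over WT and -0.54 for dCIS over WT. Neither passed the test (edgeR adjusted p = 0.769 and 0.496). Tnf averaged 1870 ± 336 CPM in KO and 1660 ± 214 CPM in dCIS, and Nlrp3 802 ± 67.5 CPM in KO and 662 ± 106 CPM in dCIS (SD, n = 4 each). The edgeR adjusted p was 0.67 for Tnf and 0.34 for Nlrp3. WT averaged 1770 ± 325 CPM of Tnf and 632 ± 116 CPM of Nlrp3.

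Of 25 measured genes of the inflammasome and the IL-1 family, 1 was called, and 3 with the replicate block. Aim2, a sensor of cytosolic DNA, had 159, 174, 162 and 168 CPM in KO, against 147, 142, 122 and 114 CPM in dCIS. KO was higher throughout, by a log2 fold change of 0.34 ± 0.0825 (SE; edgeR adjusted p = 0.03), and dCIS libraries 3 and 4 were its lowest. The call was lost without any 1 of the KO libraries or dCIS library 3 or 4 (edgeR adjusted p = 0.0532 to 0.119), and the log2 fold change was 0.20 without both of these dCIS libraries (adjusted p = 0.592). Aim2 averaged 157 ± 2.67 CPM in WT (SD, n = 4), with log2 differences of 0.08 for KO over WT and -0.26 for dCIS over WT. Neither passed the test (edgeR adjusted p = 0.639 and 0.165).

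Of 43 measured genes of the type I interferon response, 31 had a log2 fold change above 0 and 1 was called, with 3 under the replicate block. Their summed level was 73000 to 78000 CPM in KO, 60100 to 69000 CPM in dCIS and 64700 to 69300 CPM in WT. Mx2, an antiviral GTPase, had 858, 756, 896 and 851 CPM in KO, against 529, 578, 487 and 527 CPM in dCIS. The groups lay well apart, with a log2 fold change of 0.66 ± 0.176 (SE; edgeR adjusted p = 0.044), and 0.60 without dCIS libraries 3 and 4 (adjusted p = 0.435). Its call was lost without any 1 of the KO libraries or dCIS library 1, 3 or 4 (edgeR adjusted p = 0.0527 to 0.146). Mx2 averaged 652 ± 23.6 CPM in WT (SD, n = 4), between KO and dCIS. Neither KO nor dCIS passed the test against WT (edgeR adjusted p = 0.23 and 0.484). Of 15 guanylate-binding proteins and immunity-related GTPases 14 were above 0 and 0 were called by edgeR (3 at an unadjusted p under 0.05, 0 with DESeq2). Of 16 PYHIN and Schlafen genes, Slfn3 was called, with 37.3, 42.5, 36.0 and 34.8 CPM in KO, against 22.7, 29.7, 14.6 and 19.0 CPM in dCIS. It was not called without KO library 1 or 2 or dCIS library 3 or 4 (edgeR adjusted p = 0.0522 to 0.106), and without both of these dCIS libraries its log2 fold change was 0.52 instead of 0.81 (0.473). Slfn3 averaged 24.4 ± 4.88 CPM in WT, and neither KO nor dCIS passed the test against WT (edgeR adjusted p = 0.0612 and 0.719). The medians of these 3 lists were 0.11, 0.19 and 0.23 with all libraries, and 0.02, 0.02 and 0.08 without dCIS libraries 3 and 4. None of 18 genes of MHC class I presentation and none of 13 of MHC class II passed the edgeR test. In each list 4 had an unadjusted p under 0.05, and DESeq2 called 0 of either. With 2.18% of all genes called, 0 calls tell little in these lists or in that of the guanylate-binding proteins.

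Matrix enzymes gave a few more calls, and genes of lipid mediators gave none in the fit without a block. Of 14 genes of prostaglandin and leukotriene synthesis 0 were called by edgeR, against 2.18% of all genes (2 at an unadjusted p under 0.05, 0 with DESeq2). Their summed level was 2730 to 2980 CPM in KO and 1520 to 2520 CPM in dCIS. Most of it was Ptgs2, cyclooxygenase 2, with 1990 ± 128 CPM in KO and 1170 ± 401 CPM in dCIS (SD, n = 4 each; log2 fold change 0.76; edgeR adjusted p = 0.0929). Among 24 matrix metalloproteinase genes and inhibitors, Adam19, Mmp9 and Fn1 were called higher. Mmp9, gelatinase B, had 87.4, 40.2, 135 and 111 CPM in KO, against 30.9, 20.7, 41.9 and 38.3 CPM in dCIS, with KO library 2 inside the dCIS range. Fn1, fibronectin, averaged 4.42 ± 1.08 CPM in KO and 1.5 ± 0.647 CPM in dCIS. Mmp9 lost its call without any library but KO library 2 or dCIS library 2, and Fn1 without any KO library or dCIS library 3 or 4 (edgeR adjusted p = 0.0603 to 0.147). Leaving out dCIS libraries 3 and 4 together gave an edgeR adjusted p of 0.138 for Mmp9 and 0.565 for Fn1.

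Slc7a2, which carries arginine into the cell, had 215, 216, 161 and 223 CPM in KO, against 132, 139, 94.4 and 134 CPM in dCIS. KO was above dCIS throughout, while WT averaged 239 ± 48.0 CPM (SD, n = 4). The log2 fold change of KO over dCIS was 0.70 ± 0.143 (SE; edgeR adjusted p = 0.00874; 0.161 without dCIS libraries 3 and 4), and dCIS over WT was -0.94 (adjusted p = 0.00209). Acsl1, which activates long-chain fatty acids, had 248, 282, 256 and 257 CPM in KO, against 203, 192, 147 and 135 CPM in dCIS. It was the only one called of 15 genes of fatty acid synthesis, and lost its call without dCIS library 3 (0.061) or 4 (0.0598). Its log2 fold change of 0.62 was 0.40 without both (edgeR adjusted p = 0.394).

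The remaining calls within lists were single genes. Cebpb, a transcription factor of myeloid differentiation, averaged 317 ± 44.4 CPM in KO and 458 ± 73.9 CPM in dCIS (SD, n = 4 each), the only call among 29 genes of macrophage identity. Bad, which promotes apoptosis, averaged 12.3 ± 0.931 CPM in KO and 18.6 ± 3.57 CPM in dCIS. Atp5g2, a subunit of ATP synthase, had 36.6, 36.0, 35.4 and 32.7 CPM in KO, against 40.4, 35.9, 63.1 and 58.2 CPM in dCIS. Its dCIS library 2 lay inside the KO range and dCIS libraries 3 and 4 were the high ones, and the log2 fold change of -0.49 was -0.12 without both (edgeR adjusted p = 0.895). Of 17 clock genes, Clock was higher, with 36.2 ± 3.31 CPM in KO and 23.8 ± 4.18 CPM in dCIS. Bhlhe41, a repressor of the clock, was lower, with 18.3 ± 5.45 CPM in KO and 28.8 ± 6.24 CPM in dCIS. Acp5, the tartrate-resistant acid phosphatase found in osteoclasts and macrophages, was the only one called of 5 osteoclast markers, with 5.86 ± 1.34 CPM in KO and 10.1 ± 2.21 CPM in dCIS. None of these 6 was called without dCIS libraries 3 and 4 together, with log2 fold changes of -0.49 for Cebpb, -0.34 for Bad, 0.44 for Clock, -0.73 for Bhlhe41 and -0.88 for Acp5 (edgeR adjusted p = 0.319, 0.496, 0.377, 0.11 and 0.0866). Without dCIS library 3 none of these 6 genes was called, at edgeR adjusted p-values of 0.0642 to 0.225. Without KO library 3 none was called either, at 0.052 to 0.139. Without KO library 1 the 5 other than Clock were not called (0.0522 to 0.136), and without KO library 4 the 4 other than Bad and Clock were not (0.0939 to 0.137). Without dCIS library 4 the 4 other than Bhlhe41 and Acp5 were not called (0.0505 to 0.17), without dCIS library 1 Cebpb, Bhlhe41 and Acp5 were not (0.0639 to 0.0887), and without KO library 2 Atp5g2 was not (0.078).

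Over all 45 lists, 868 listed genes were measured, of which 11 were higher and 15 lower in KO (3.0%), against 2.18% of all genes. Lists of ribosomal proteins (77 measured), lysosomal genes (40), glycolysis (23), the unfolded protein response (23), cholesterol synthesis (26), the tricarboxylic acid cycle (19) and complement (14) had 0 called by edgeR. An unadjusted p under 0.05 was reached by 3, 8, 1, 1, 2, 1 and 5 of them, and DESeq2 called 1, 0, 0, 0, 0, 0 and 2.

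**Figure D4:**
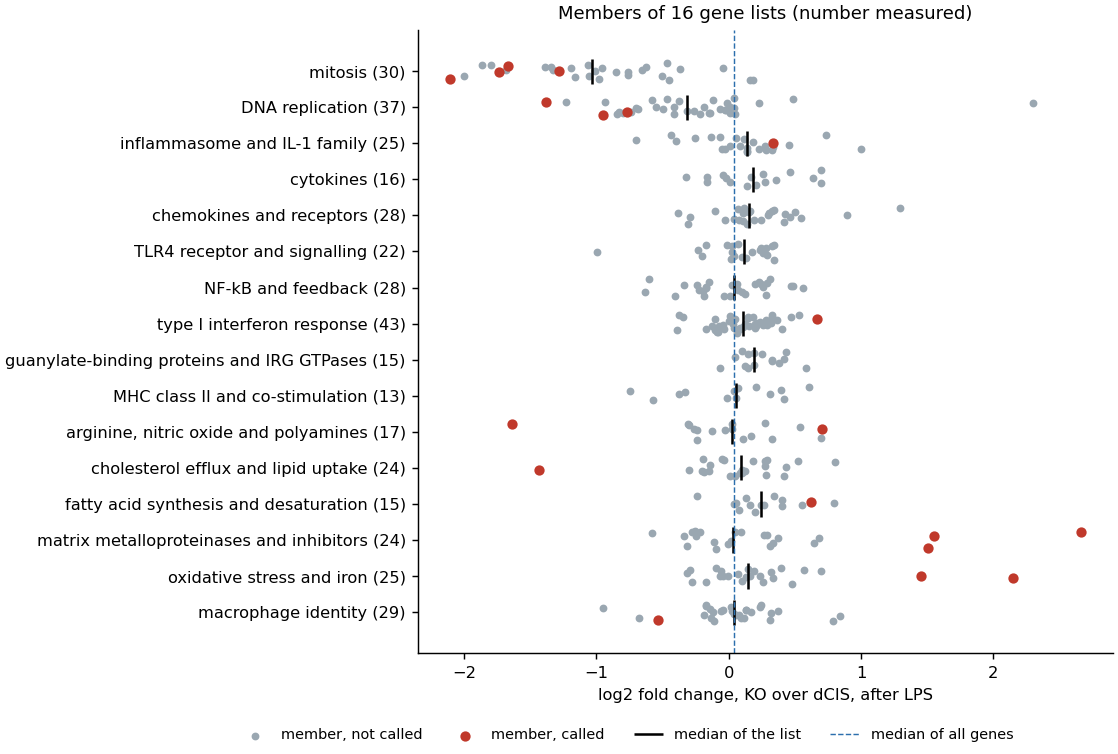
Log2 fold change of KO over dCIS after LPS for the members of 16 gene lists, 1 point per gene (red, called), with the median of each list as a black line and the median of all genes, 0.04, dashed. The median of mitosis genes is -1.03 and that of DNA replication genes is -0.32.

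By chromosome, 31 of the 514 tested genes on chromosome 12, which carries Hdac9, were called (6.03%), against 2.18% of all genes. Of these 31, 20 were higher and 11 lower in KO, and 23 were called in the same direction without LPS. They included Odc1, Adi1, Nol10, Rnf144a, Etv1, Zfp125, Scfd1, Dtd2, Acp1, Hpcal1 and Rnaseh1, all described above. The 10 measured genes on either side of Hdac9 were not among them: 0 of these 20 were called after LPS (4 at an unadjusted p under 0.05, 0 with DESeq2) and 3 without LPS, and their median log2 fold change after LPS was -0.02. These 20 are only the nearest measured genes, and distances of the other called genes from Hdac9 are not given here. Next in share among chromosomes with at least 100 tested genes were 16 (3.59%), 13 (3.54%) and 1 (3.34%). Cd200, Nectin3, Ift57, Adprh and Mx2 lie on 16, and Akr1c12, Akr1c19, Gpr141b, Ero1lb, Mier3 and Lgals8 on 13. On 1 lie Steap3, Wdfy1, Glrp1, Epha4, B3gnt7, Aim2, Fn1 and the named Ugt1a genes. The cause of these shares was not tested. Chromosomes and gene order came from an annotation on GRCm38, which placed 98.5% of the tested genes.

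**Figure D5:**
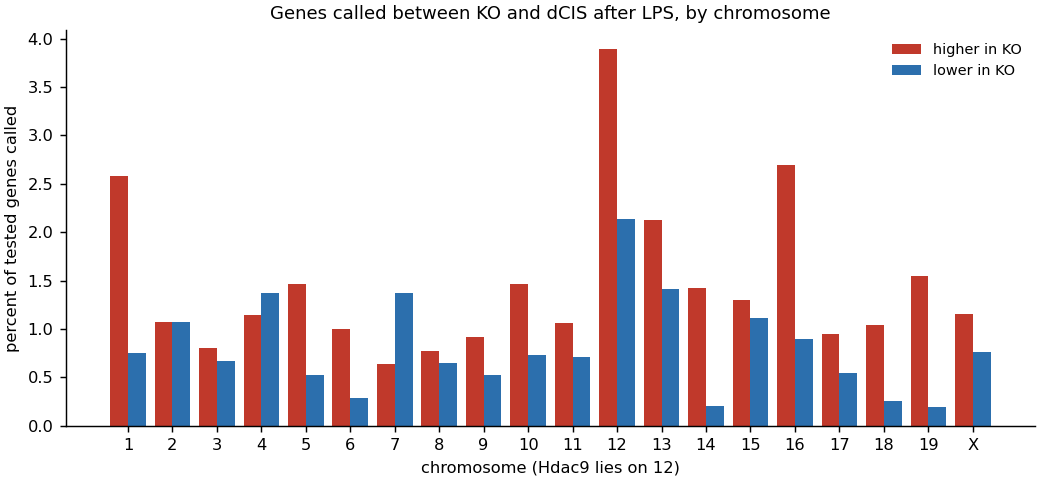
Percent of tested genes on each chromosome that were called higher (red) or lower (blue) in KO than in dCIS after LPS, for chromosomes with at least 100 tested genes. Chromosome 12 has the tallest bar for genes higher in KO and for genes lower in KO.

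Set against WT after LPS, 405 genes (2.74%) were called in KO and 38 (0.258%) in dCIS. These comparisons share libraries with the KO against dCIS comparison, so their counts are given side by side only. Without dCIS libraries 3 and 4 the dCIS count was 6.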

How the data were processed

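RNA was extracted on a Maxwell instrument, 200 ng were taken onto oligo-dT beads, and libraries were sequenced as 60 nt paired-end reads, per the labels' protocols. The authors deposited whole-number counts per gene ID on mm39; STAR and edgeR are named in the submitters' processing notes, with versions, strand setting and annotation not given in the sources used here. Of the 56941 IDs, 51948 (91.2%) were matched to a symbol. The unmatched IDs took 0.706% to 2.42% of each compared library.

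From these counts, edgeR 4.0.16 (R 4.3.3) fitted all 24 libraries together with TMM factors. Genes were kept by filterByExpr (minimum count 10, minimum total 15), and a quasi-likelihood test with Benjamini-Hochberg adjustment over 14757 genes called a gene at an adjusted p under 0.05. CPM used TMM-scaled library sizes. Standard errors came from the fold change and the F statistic. Alternatives, including DESeq2 1.42.0 and limma 3.58.1, are given in the closing section, and edgeR was tested on simulated data. No pair of libraries agreed within sampling noise. Counting intervals and floors (95%, 3 counts) cover counting error only, since reads are not independent molecules.

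Whether libraries of KO and dCIS with the same number deviate together was checked: the 4 correlations after LPS were 0.111, 0.29, 0.25 and 0.126 over 9181 genes of at least 5 CPM, and 0.029 to 0.153 over all tested genes. KO libraries 1 and 4 correlated best with dCIS libraries 2 and 3, not with their own number. All results come from the fit without a block; fits with the replicate number as a block are given beside them where a call or a count changes. Treated and untreated libraries of 1 line correlated best with their own number in all 8 cases (0.334 to 0.412 in KO, 0.1 to 0.575 in dCIS). The labels do not say what a number stands for.

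The comparison and the gene lists were chosen with earlier results of these data known. Genes were named as the 12 largest rises and falls among called genes of at least 5 CPM in the higher group without overlap, up to 4 called members per list, 6 set inflammatory and sterol genes, up to 8 genes called in both treatments, and the genes of the difference of responses; numbered gene models were counted only, and a few genes are not reported here. Hdac4, Hdac5, Hdac7, Srm, Sms, Mki67, Ptgs2 and the 11 genes so marked in the set of 26 were named after their values were seen. Promoters are RefSeq's, on GRCm38.p6.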

Additional observations from a re-analysis of the deposited data

Results flagged for a closer look

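Of 109 groups of 4 libraries examined for 56 named genes, leaving out groups with 3 or more libraries at 0, 7 held a library far from the other 3 by Dixon's 95% limit on the gap over the range; chance alone gives about 1 in 20 groups. In KO after LPS, Rrm1 was high in library 1 (21.0 CPM, others 13.5 to 13.9), and Ugt1a8 was high in library 1 (2.32 CPM, others 1.59 to 1.71). Library 2 was high for Tnf (2370 CPM, others 1660 to 1730) and for Abcg1 (248 CPM, others 138 to 154). Slc7a2 was low in library 3 of KO (161 CPM, others 215 to 223) and in library 3 of dCIS (94.4 CPM, others 132 to 139). In dCIS after LPS, Ccna2 was low in library 3 (2.34 CPM, others 3.84 to 4.05).

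The response to LPS differed between KO and dCIS at 4 genes by edgeR's test of the difference itself, in the fit without a block. With a block for the number within each genotype 158 genes passed. The 4 genes of the fit without a block are given here. The differences on the log2 scale were -3.557 for Rnf144a and 1.263 for Nol10 (adjusted p = 0.000781 each), 0.9981 for Lsm11 and 0.9664 for Med21 (adjusted p = 0.0471 each).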

How the results depend on the processing

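The number of genes called between KO and dCIS after LPS, 322 (199 higher and 123 lower in KO), was 322 (186 and 136) with DESeq2's size factors in edgeR and 332 with a stricter filter. It was 850 (491 and 359) with no filter on low counts, 751 (467 and 284) with the replicate block, 1940 (1316 and 624) with a replicate block within each genotype, 82 (44 and 38) when only the 8 libraries were fitted, 656 (364 and 292) with DESeq2, and 509 (310 and 199) with limma's library quality weights. Without dCIS libraries 3 and 4 it was 62 (31 and 31), and without dCIS libraries 1 and 2 it was 3080 (2217 and 863). Restricted to genes of at least 5 CPM, an alternative chosen after seeing the data, it was 298 (129 and 169), so that most calls were then lower in KO. Leaving out 1 library gave 122 to 1446 called, 71 to 1012 higher and 40 to 434 lower. As said above, the block within genotype gives p-values that are too small for a comparison of lines. The cause of the other shifts was not tested.

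Untreated, 3147 became 1317 when only the compared libraries were fitted and 4769 with quality weights, and 1198 to 4488 without 1 library. The 4 genes of the difference of responses became 164 (no filter), 158 (block within genotype), 2 (only compared libraries), 32 (DESeq2), 26 (quality weights) and 378 (without dCIS libraries 1 and 2), and 2 to 167 without 1 library. KO against WT after LPS gave 405 calls, and otherwise 1038, 1058, 2226, 1995, 1080 and 2519 (no filter, replicate block, block within genotype, only compared libraries, DESeq2, quality weights), and 68 to 455 without 1 library. For dCIS against WT the 38 became 277, 91, 360, 12, 203 and 79 in the same order, 6 without dCIS libraries 3 and 4, 1067 without dCIS libraries 1 and 2, and 16 to 195 without 1 library. The 2226 and 360 of the block within genotype rest on p-values that are too small, as for KO against dCIS.

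The Hdac9 log2 fold change stayed between -5.93 and -5.07. Uncalled genes changed sign: Tnf was -0.033 with quality weights, Abca1 -0.007 without dCIS libraries 3 and 4, and Abcg1 0.133 without dCIS libraries 1 and 2 and 0.013 to 0.099 without KO library 1, 3 or 4 or dCIS library 2 (its leave-one-out values ran from -0.265 to 0.099). Of 49 named called genes beside Hdac9, 26 lost their call without dCIS libraries 3 and 4 and 17 of 46 tested when only the 8 libraries were fitted; none changed sign. The replicate block changed no named call except that Il1b and Il6 passed. Genes of 0.5 to 1 CPM were at 0 more often in dCIS libraries 3 and 4 (5.895% and 18.175%) at total counts of 16651501 and 14813435, against 14636058 to 16570668 in KO; the cause was not tested.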
